A study of Rattus norvegicus with 12 samples.

Results

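The lymphoid chemokines and B cell survival factors were followed in whole rat lung as 10 genes: Cxcl13, Ccl19, Ccl21, Cxcl12, Ccr7, Lta, Ltb, Ltbr, Tnfsf13 and Tnfsf13b. Every probe set that the platform annotation assigns to 1 of these symbols was taken, which gave 11 of the 31042 probe sets that are not controls, for 8 of the 10 genes. Ccr7 and Tnfsf13b had no probe set under their symbols and were not analysed here. Of the 11 probe sets, 10 passed the filter on low values, a log2 value of at least 4 on at least 3 of the 12 arrays, as did 16536 probe sets of the whole array. These 10 belong to 7 genes, and Lta, the gene left over, stayed below the filter.

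The study asked about mast cells in the pulmonary hypertension of left heart disease. Male Sprague-Dawley rats underwent supracoronary aortic banding as juveniles of 91 ± 9 g body weight, which leads to congestive heart failure (CHF), or a sham operation without the clip, and lungs were taken 9 weeks later. Ketotifen, which stabilises mast cells and also blocks histamine receptors, was given at 1 mg/kg/day in the drinking water from day 1 after surgery. The 4 groups were CHF with ketotifen, CHF with placebo, sham with ketotifen and sham with placebo, with 3 arrays each; the design text calls the rats without drug untreated, and the labels call them placebo. The labels give no allele or genetic change for any group. Nothing in the labels states that the 3 arrays of a group are single animals, although the replicate titles are separate. The p-values therefore rest on the spread between arrays, which may not be a spread between animals. That spread is taken within groups, pooled over the 4 groups and drawn towards the trend over all probe sets.

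Lymphoid tissue is laid out by a few chemokines. Cxcl13 draws B cells and follicular helper T cells through Cxcr5, while Ccl19 and Ccl21 draw T cells and mature dendritic cells through Ccr7. Cxcl12 retains and guides many leukocytes and their precursors through Cxcr4. Stromal cells make these chemokines under the lymphotoxins: Lta and Ltb form a membrane complex on lymphocytes that binds Ltbr and signals through the alternative NF-kappaB pathway. Tnfsf13 (APRIL) and Tnfsf13b (BAFF) are tumour necrosis factor family ligands, made largely by myeloid cells, that keep plasma cells and B cells alive. In the lung the same genes are known for the lymphocyte clusters around bronchi and vessels in chronic inflammation.

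The 120 bases before the start that the RefSeq promoter set uses are shown for 4 of these genes. The lymphotoxin genes carry the match for the NF-kappaB family. Ccl21 and Tnfsf13, the members whose brightest probe sets passed the test in CHF against sham, hold none in these windows. Sequences are from RefSeq, build GRCr8, written 5′ to 3′ on the strand of the gene, and capitals mark a match to the kappaB consensus, searched on both strands.
Ltb, chr20:3634055-3634174, minus strand: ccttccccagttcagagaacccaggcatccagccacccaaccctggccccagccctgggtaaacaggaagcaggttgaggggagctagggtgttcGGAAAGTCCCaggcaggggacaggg
Lta, chr20:3623407-3623526, plus strand: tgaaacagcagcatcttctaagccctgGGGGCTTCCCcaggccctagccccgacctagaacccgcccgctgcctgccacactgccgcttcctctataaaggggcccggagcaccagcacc
Ccl21, chr5:61777516-61777635, minus strand: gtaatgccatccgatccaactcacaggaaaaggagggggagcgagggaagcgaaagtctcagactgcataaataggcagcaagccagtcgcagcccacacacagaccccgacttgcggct
Tnfsf13, chr10:54901816-54901935, minus strand: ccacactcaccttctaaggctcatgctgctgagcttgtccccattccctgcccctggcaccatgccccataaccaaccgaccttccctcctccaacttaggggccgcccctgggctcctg
The Lta match begins 93 bases before the start used, on the gene's own strand. The Ltb match begins 25 bases before its start, on the opposite strand. The Lta window lies inside the annotated gene, chr20:3622291-3625852, so the start used for Lta is not the outermost one. The windows of Ltbr and Tnfsf13b also overlap their annotated genes. Over the 250 bases before the start, 2 of the 9 member promoters in the RefSeq table held the kappaB consensus, against 3.54% of 33469 rat promoters. Over the same window TATAAA, read on both strands, stood in 2 of 9, Cxcl13 and Lta, against 12.9% of all promoters. These are matches of letters, and binding was not measured.

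All 12 arrays had the markers of lung at high level, with Sftpc, the surfactant protein of alveolar type II cells, between 15.40 and 15.93 on the log2 scale. Between 15809 and 16056 probe sets per array reached a log2 value of 4, and the number of arrays, not a count of reads, limits the precision. The difference between the 3′ and 5′ actin probe sets, a sign of RNA integrity, was 4.52 in sham ketotifen lung 2, 4.23 in sham placebo lung 2 and 3.90 in sham placebo lung 3, against 2.90 to 3.45 on the other 9 arrays. Genes of ciliated cells were high on sham placebo lungs 2 and 3, and genes of cardiomyocytes on sham ketotifen lungs 1 and 2 and sham placebo lung 3. CHF ketotifen lungs 1 and 3 were the most alike pair of all arrays, with a correlation of 0.993 over the probe sets, and did not hold identical values. CHF placebo lung 1 correlated at 0.974 with CHF ketotifen lungs 1 and 3, against 0.966 and 0.947 with CHF placebo lungs 2 and 3 of its own group, and its label was kept.

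Ccl21 rose in CHF against sham under ketotifen and in the average over both drug arms, but was not called under placebo. Tnfsf13 rose in the average over both arms. Cxcl13 and Ccl19 were not called in any comparison, with wide intervals for Cxcl13, and whether their differences differ from that of Ccl21 was not tested. Tests were limma fits over all 16536 probe sets with Benjamini-Hochberg adjustment, called at an adjusted p below 0.05, and each gene was counted by its brightest kept probe set. With ketotifen, 1 of the 7 genes was called in CHF against sham, against 13% of all probe sets tested. Averaged over the placebo and ketotifen arms, 2 of 7 were called in CHF against sham, against 21% of all. With placebo 0 of 7 were called in CHF against sham, where 0.169% of all probe sets were, and 1 of 7 had an unadjusted p under 0.05, against 20.1% of all. Ketotifen against placebo called 0 of 7 within CHF, where 1.22% of all probe sets were, with 2 of 7 at an unadjusted p under 0.05, against 17.1% of all. The same drug comparison called 0 of 7 in sham lungs, where 0.0847% of all were, with 0 of 7 at an unadjusted p under 0.05, against 14% of all. The interaction of surgery and drug called 0 of 7, against 0.369% of all probe sets, with 1 of 7 at an unadjusted p under 0.05, against 10.8% of all. By their brightest probe sets, 4 of the 7 genes, Ccl21, Cxcl12, Ltbr and Tnfsf13, lay higher without overlap in CHF against sham with ketotifen, where 19.2% of all probe sets did. The median difference over the 7 genes was 0.51 on the log2 scale in ketotifen against placebo within CHF, beside -0.04 over all probe sets, and 0.38 beside -0.03 in CHF against sham with ketotifen.

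**Figure D1:**
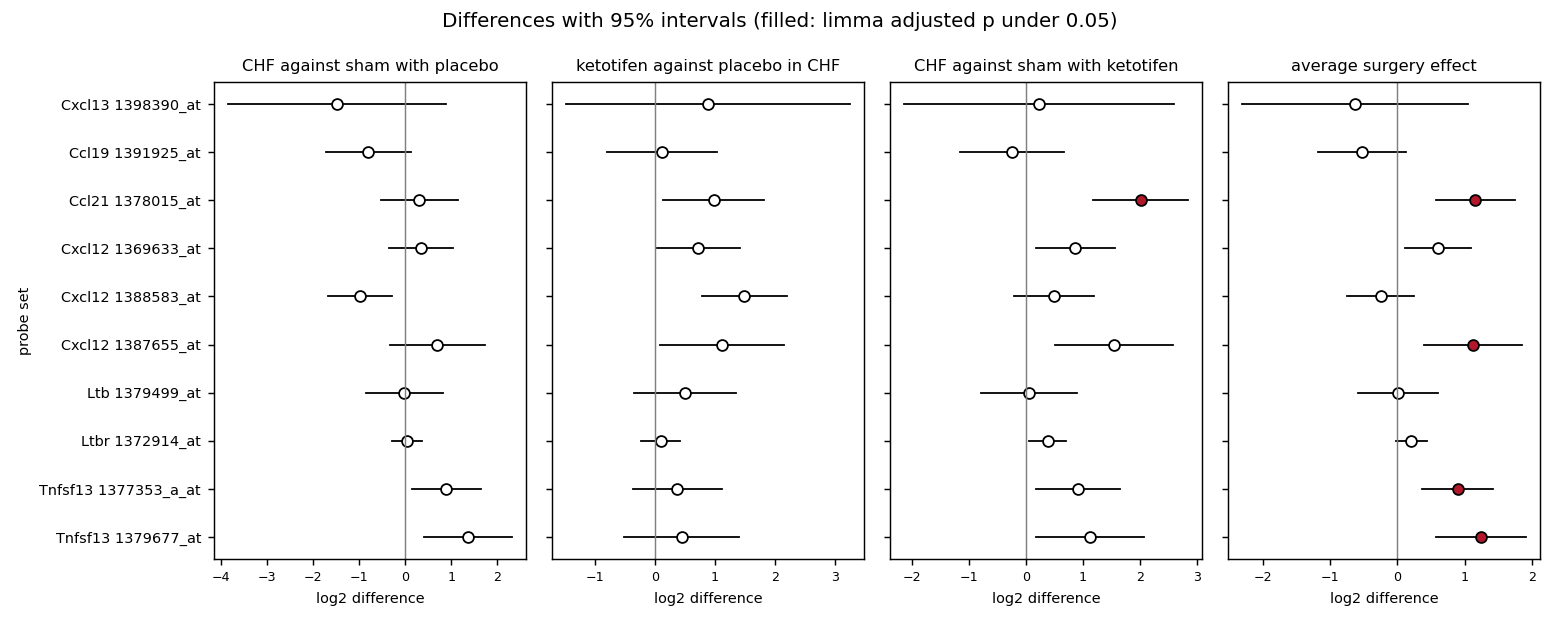
Differences on the log2 scale, with 95% intervals from the limma fit, for every kept probe set of the chemokine, lymphotoxin and B cell survival genes in the comparisons of CHF with sham and of ketotifen with placebo. Ccl21 and the probe sets of Tnfsf13 lie to the higher side of 0 in CHF against sham with ketotifen, and the intervals of Cxcl13 are the widest.

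Ccl21, the chemokine of lymphatic vessels and T cell zones, had log2 values of 10.95, 10.46 and 11.27 in CHF ketotifen lungs, and of 10.92, 9.75 and 9.07 in CHF placebo lungs. It had 8.73, 9.18 and 8.73 in sham ketotifen lungs, and 9.76, 9.55 and 9.50 in sham placebo lungs. All CHF ketotifen lungs lay above all sham lungs of both arms, and of the CHF placebo lungs only lung 1 did. Against the sham ketotifen lungs alone, 19.2% of all probe sets lay higher without overlap. The difference of CHF against sham with ketotifen was 2.01 ± 0.38 (SE, n = 3 each) on the log2 scale, 4.03-fold, with an adjusted p of 0.0109 (limma). Averaged over both arms it was 1.16 ± 0.27, 2.23-fold, with an adjusted p of 0.0161 (limma).

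Under placebo alone Ccl21 differed by 0.31 ± 0.38 in CHF against sham, with an interval of -0.53 to 1.15 and an adjusted p of 0.688 (limma). Leaving out CHF placebo lung 1 turned that difference to -0.19. Ketotifen against placebo within CHF gave 0.98 ± 0.38, 1.97-fold, with an adjusted p of 0.22 (limma), and without CHF placebo lung 1, the lung that correlated better with CHF ketotifen lungs 1 and 3 than with its own group, it was 1.48 with an adjusted p of 0.0111. The interaction was 1.70 ± 0.54, with an adjusted p of 0.288 (limma), and without that lung it was 2.20 with an adjusted p of 0.015. CHF placebo lung 1 held the highest Ccl21 value of its group, so leaving it out widens the drug difference by itself. No reading is drawn from the fits without it. In sham lungs the 3 ketotifen values all lay below the 3 placebo values, with a difference of -0.72 ± 0.38 and an adjusted p of 0.422 (limma), where 8.87% of all probe sets did so.

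Ackr4, the scavenger receptor that takes up Ccl19 and Ccl21, ran the other way. Its log2 values were 5.28, 5.46 and 5.68 in CHF ketotifen lungs and 6.02, 8.79 and 9.58 in CHF placebo lungs, against 8.26, 8.82 and 8.92 in sham ketotifen lungs and 8.98, 8.43 and 8.51 in sham placebo lungs. The CHF ketotifen lungs and CHF placebo lung 1 were low. Ackr4 fell by 3.20 ± 0.68 on the log2 scale in CHF against sham with ketotifen, with an adjusted p of 0.0164 (limma). It fell by 1.85 ± 0.48 in the average over both arms, with an adjusted p of 0.0236 (limma). Leaving out CHF ketotifen lung 1, CHF ketotifen lung 2 or sham ketotifen lung 3 put the adjusted p of the ketotifen comparison at 0.0509, 0.054 and 0.0522, and leaving out sham ketotifen lung 3 put that of the average at 0.0504. Ketotifen against placebo within CHF gave -2.66 ± 0.68 with an adjusted p of 0.0885 (limma), and -3.71 with an adjusted p of 0.000122 without CHF placebo lung 1. That lung held the lowest Ackr4 value of its group, so no reading is drawn from the fit without it.

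Markers of lymphatic endothelium, a source of Ccl21, were read as a list. Their mean log2 level was 5.92 to 6.57 in CHF ketotifen lungs, 6.39 to 6.62 in CHF placebo lungs, 6.49 to 6.66 in sham ketotifen lungs and 6.26 to 6.94 in sham placebo lungs, so the groups overlapped. Prox1, the transcription factor that sets lymphatic identity, and Stab2, a hyaluronan receptor, were below a log2 value of 4 on all arrays. Lyve1, the hyaluronan receptor of lymphatic vessels and some macrophages, fell by 2.92 ± 0.63 in CHF against sham with ketotifen, with an adjusted p of 0.0168 (limma). The other 4 kept markers were not called there: Mmrn1 differed by 1.00 and Reln by 0.63, and Flt4 by -0.10 and Pdpn by -0.42. In whole lung, fewer cells of a type and less RNA per cell cannot be told apart.

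**Figure D2:**
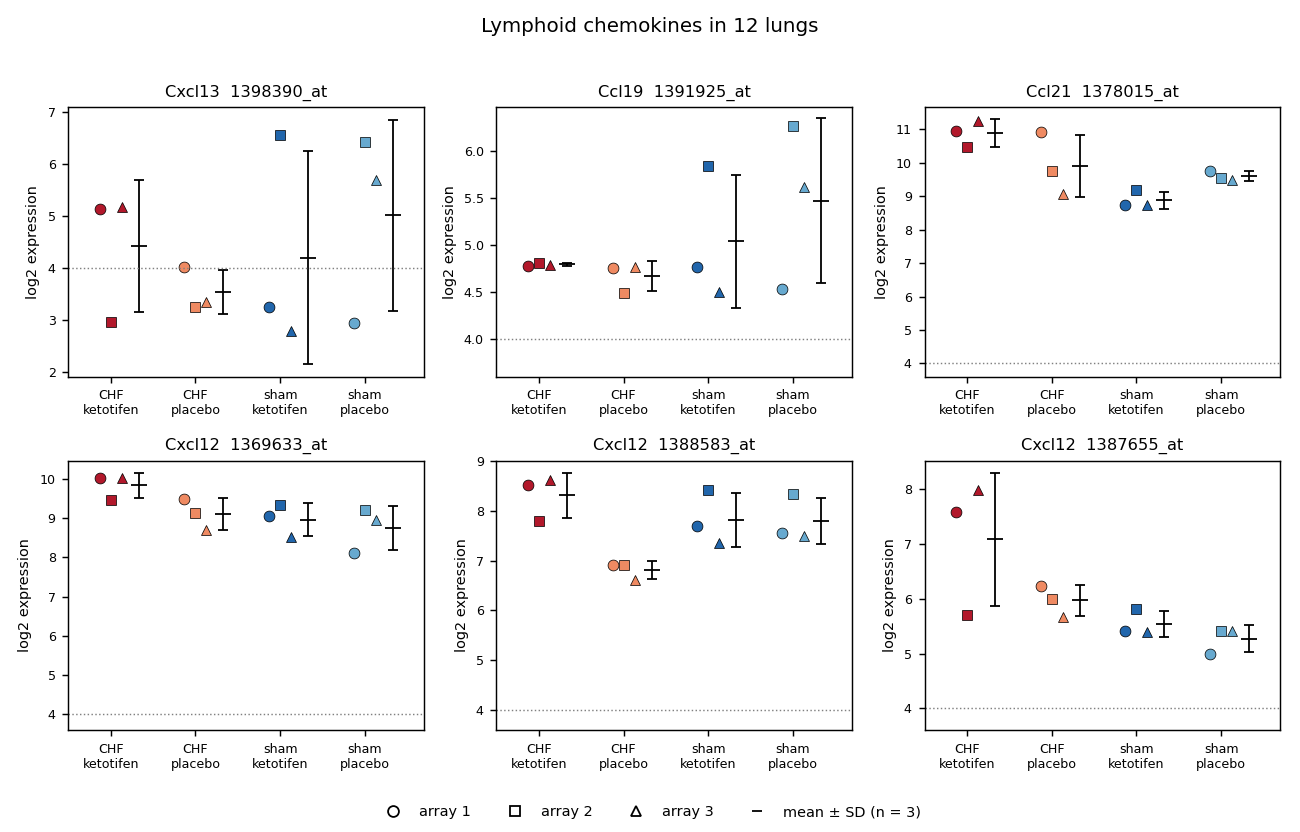
Log2 expression of the chemokine probe sets on each of the 12 arrays, with symbols for arrays 1 to 3 and bars for the mean ± SD of each group (n = 3), and a dotted line at the log2 value of 4 used in the filter. Ccl21 is highest in CHF ketotifen lungs, and Cxcl13 and Ccl19 are highest on single arrays of the sham groups.

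Cxcl12, the ligand of Cxcr4, was read by 3 probe sets. Which of the 3 RefSeq transcripts each one reads is not given in the sources used here. Its brightest probe set, 1369633_at, had log2 values of 10.02, 9.46 and 10.02 in CHF ketotifen lungs, 9.49, 9.13 and 8.69 in CHF placebo lungs, 9.05, 9.32 and 8.51 in sham ketotifen lungs, and 8.12, 9.20 and 8.94 in sham placebo lungs. The CHF ketotifen lungs were above the sham ketotifen lungs without overlap, by 0.87 ± 0.32, with an adjusted p of 0.0896 (limma).

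Probe set 1388583_at had 8.52, 7.79 and 8.62 in CHF ketotifen lungs and 6.92, 6.91 and 6.60 in CHF placebo lungs, against 7.68, 8.42 and 7.36 in sham ketotifen lungs and 7.56, 8.34 and 7.49 in sham placebo lungs. The 3 CHF placebo lungs lay below the 9 others. Of all probe sets, 9.86% were higher without overlap in ketotifen against placebo within CHF, and 10.7% lower without overlap in CHF against sham with placebo. The difference of ketotifen against placebo within CHF was 1.496 ± 0.32, 2.82-fold, with an adjusted p of 0.0524 (limma). It passed 0.05 in 4 of the 12 fits that left out 1 array, at adjusted p of 0.0352 to 0.044 without CHF ketotifen lung 2, CHF placebo lung 1, sham ketotifen lung 2 or sham placebo lung 2. CHF against sham with placebo gave -0.98 ± 0.32 with an adjusted p of 0.146 (limma).

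Probe set 1387655_at had 7.59, 5.70 and 7.98 in CHF ketotifen lungs and 6.24, 5.99 and 5.68 in CHF placebo lungs, against 5.42, 5.82 and 5.40 in sham ketotifen lungs and 4.998, 5.42 and 5.41 in sham placebo lungs. It was called in the average of CHF against sham, at 1.12 ± 0.33 with an adjusted p of 0.0361 (limma), and in 3 of 12 fits that left out 1 array, with adjusted p of 0.0555 to 0.0827 in the 9 others. With ketotifen its CHF against sham difference was 1.54 ± 0.47, with an adjusted p of 0.0527 (limma), and 2.24 with an adjusted p of 0.0015 without CHF ketotifen lung 2, its low array. No reading is drawn from the fit without that lung. In the average the brightest probe set gave 0.61 ± 0.22 with an adjusted p of 0.0735, and 1388583_at gave -0.25 ± 0.23 with an adjusted p of 0.45 (limma). The signs of the 3 probe sets differed in the average and, with placebo, in CHF against sham. All 3 were higher in ketotifen against placebo within CHF and in CHF against sham with ketotifen, where none was called.

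Ackr3, the scavenger receptor that binds Cxcl12 beside Cxcr4, had values of 12.09, 12.08 and 12.11 in CHF ketotifen lungs and 11.37, 10.86 and 11.12 in CHF placebo lungs, against 10.88, 10.95 and 11.05 in sham ketotifen lungs and 10.35, 11.58 and 11.17 in sham placebo lungs. All CHF ketotifen lungs stood above the 9 others, and the share of all probe sets that did so was not counted. Against sham ketotifen lungs alone 19.2% of all probe sets lay higher without overlap, and against CHF placebo lungs alone 9.86%. It rose by 1.13 ± 0.25 in CHF against sham with ketotifen, with an adjusted p of 0.0184 (limma), but the adjusted p was 0.0517 to 0.0574 without CHF ketotifen lung 1, 2 or 3 and 0.0548 without sham ketotifen lung 1. Its average difference of CHF against sham was 0.61 ± 0.18, with an adjusted p of 0.0341 (limma), and was called in 3 of 12 fits that left out 1 array. Of the 6 kept receptors and scavengers of the members, Ackr3 was the 1 called higher and Ackr4 the 1 called lower in CHF against sham with ketotifen, where 6.36% and 6.61% of all probe sets were.

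Cxcl13, the B cell zone chemokine, had log2 values of 5.13, 2.97 and 5.18 in CHF ketotifen lungs and 4.02, 3.25 and 3.34 in CHF placebo lungs. It had 3.25, 6.55 and 2.79 in sham ketotifen lungs and 2.94, 6.43 and 5.69 in sham placebo lungs. The groups overlapped, and the 3 highest arrays were array 2 of the sham ketotifen group and arrays 2 and 3 of the sham placebo group. CHF against sham with placebo gave it a difference of -1.48 ± 1.08, with an interval of -3.85 to 0.89 and an adjusted p of 0.466 (limma). With ketotifen the difference was 0.23 ± 1.08, with an interval of -2.14 to 2.60.

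Ccl19, the second ligand of Ccr7, had values of 4.78, 4.81 and 4.79 in CHF ketotifen lungs, 4.76, 4.49 and 4.77 in CHF placebo lungs, 4.77, 5.84 and 4.50 in sham ketotifen lungs, and 4.53, 6.26 and 5.62 in sham placebo lungs. Its 3 highest arrays were those of Cxcl13. CHF against sham with placebo gave -0.80 ± 0.42 with an adjusted p of 0.309 (limma). The average over both arms was -0.52 ± 0.30 and not called, and without sham placebo lung 1 it was -0.76 with an adjusted p of 0.0411. That lung held the lowest Ccl19 value of its group, so no reading is drawn from the fit without it. Ketotifen against placebo within CHF differed by 0.12 on average, and the groups did not overlap by a narrow margin, the lowest CHF ketotifen value being 4.779 and the highest CHF placebo value 4.771.

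Those 3 arrays are the ones with the largest actin difference. Cr2, the complement receptor of B cells and follicular dendritic cells, was at 4.01 to 4.90 there and at 2.78 to 3.37 on the other 9. Cr2 passed the filter on low values only through those 3 arrays, so its separation there is not read as a result. The B cell list to which Cr2 belongs did not separate these arrays. Its mean was 4.41 to 6.18 there and 3.94 to 4.90 on the other 9. The ciliated cell genes had a mean of 7.10 to 9.63 there and 5.52 to 6.74 elsewhere. Of the 13 genes of the B cell list, 9 were on the array and entered the mean, and 5 were kept. The mean was 4.09 to 4.15 in CHF ketotifen lungs and 4.26 to 4.73 in CHF placebo lungs. It was 4.56 to 6.18 in sham ketotifen lungs and 3.94 to 4.79 in sham placebo lungs. The kept genes did not move alike. With placebo 1 of 5, Fcrla, was called in CHF against sham, where 0.169% of all probe sets were. It differed by 2.93, with an adjusted p of 0.0241 (limma). With ketotifen 1 of 5, Bank1, was called, where 13% of all were. Bank1 differed by -3.37, with an adjusted p of 0.0108 (limma). The part of these genes and of the actin difference in the levels of Cxcl13 and Ccl19 was not tested. Without sham placebo lungs 2 and 3, which held the highest placebo values and whose removal leaves 1 sham placebo lung, the placebo difference was 0.59 for Cxcl13 and 0.14 for Ccl19, with no reading drawn from the sign.

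**Figure D3:**
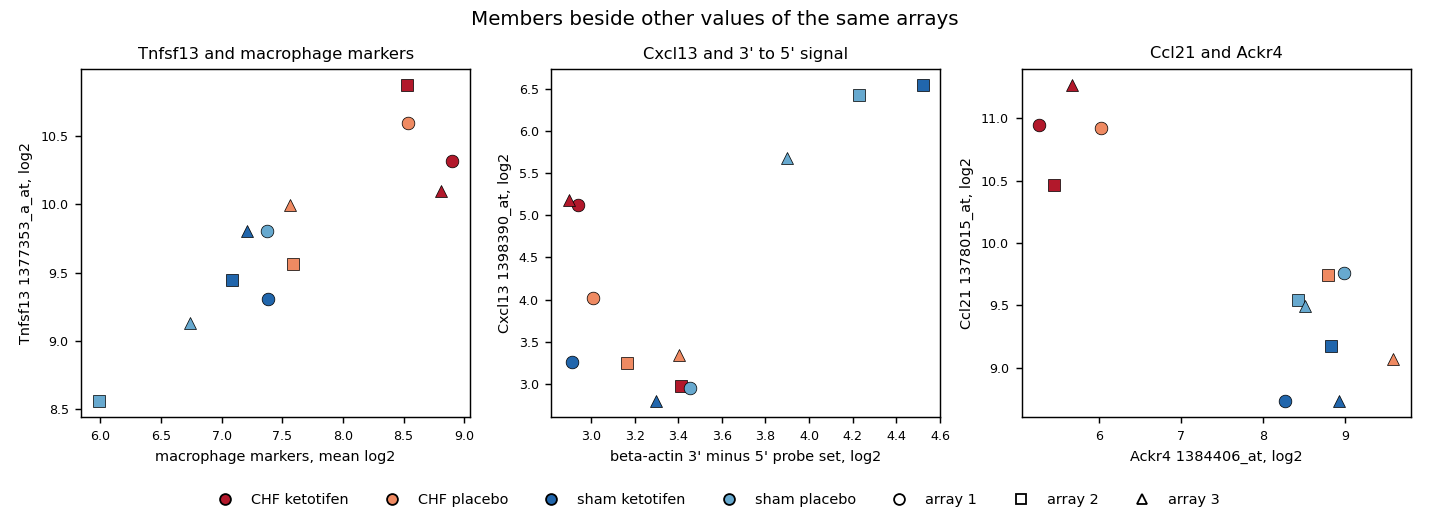
Log2 values of Tnfsf13 against the mean of the macrophage markers, of Cxcl13 against the 3′ minus 5′ actin difference, and of Ccl21 against Ackr4, with 1 point per array, colours for the 4 groups and symbols for arrays 1 to 3. Tnfsf13 is high where macrophage markers are high, 3 sham arrays with an actin difference of at least 3.90 hold the highest Cxcl13, and the 4 arrays with Ackr4 at most 6.02 hold the highest Ccl21.

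Among the lymphotoxins, Ltb, the membrane partner of Lta, had log2 values of 6.69, 8.05 and 6.88 in CHF ketotifen lungs and 6.50, 6.77 and 6.84 in CHF placebo lungs. It had 6.77, 7.91 and 6.80 in sham ketotifen lungs and 6.36, 6.81 and 6.99 in sham placebo lungs. Array 2 of each ketotifen group was high and the groups overlapped, and no comparison called it. Lta was at 2.37 to 2.45 on all 12 arrays, so it was not tested. Ltbr, the receptor of the complex of Lta and Ltb, had 9.69, 9.74 and 9.67 in CHF ketotifen lungs and 9.78, 9.54 and 9.49 in CHF placebo lungs. Ltbr had 8.97, 9.46 and 9.52 in sham ketotifen lungs, and 9.61, 9.57 and 9.50 in sham placebo lungs. It was the least variable of the kept members over the 12 arrays, and CHF against sham with ketotifen gave 0.38 ± 0.15 with an adjusted p of 0.109 (limma), without overlap.

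Tnfsf13, the plasma cell survival factor, had 2 probe sets that moved alike. By 1377353_a_at its log2 values were 10.32, 10.87 and 10.10 in CHF ketotifen lungs and 10.60, 9.57 and 9.998 in CHF placebo lungs, against 9.31, 9.44 and 9.81 in sham ketotifen lungs and 9.80, 8.56 and 9.13 in sham placebo lungs. By 1379677_at they were 9.55, 9.67 and 9.36 in CHF ketotifen lungs and 9.77, 8.61 and 8.86 in CHF placebo lungs, against 8.35, 8.03 and 8.82 in sham ketotifen lungs and 8.73, 6.84 and 7.57 in sham placebo lungs. CHF ketotifen lungs lay above sham ketotifen lungs without overlap by both, while the placebo groups overlapped.

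Averaged over both drug arms, Tnfsf13 rose in CHF against sham by 0.90 ± 0.24, 1.87-fold, by the brighter probe set, with an adjusted p of 0.0251 (limma), and by 1.24 ± 0.31, 2.37-fold, by the dimmer, with an adjusted p of 0.0196. The dimmer stayed called in all 12 fits that left out 1 array. The brighter was not called without sham placebo lung 3, CHF placebo lung 1, sham ketotifen lung 1 or CHF ketotifen lung 2, at adjusted p of 0.0561, 0.056, 0.0527 and 0.057. Neither probe set passed within a single arm: with ketotifen the differences were 0.91 ± 0.34 and 1.13 ± 0.43, with adjusted p of 0.0956 and 0.105, and with placebo 0.89 ± 0.34 and 1.36 ± 0.43, with adjusted p of 0.188 and 0.141 (limma). Without sham placebo lung 1 the placebo differences were 1.21 and 1.87, with adjusted p of 0.0454 and 0.0134 (limma). That lung held the highest Tnfsf13 value of its group by both probe sets, so no reading is drawn from this. Under ketotifen both probe sets were called when only the arrays compared were fitted, at adjusted p of 0.0427 and 0.018, and the dimmer also without sham placebo lung 1, at 0.0407. Ketotifen against placebo within CHF gave 0.38 ± 0.34 and 0.45 ± 0.43, with adjusted p of 0.605 and 0.635 (limma).

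Macrophage and monocyte markers moved with Tnfsf13. Of the 11 genes, 10 were on the array and 9 were kept, with the chemokine receptor Ccr2 below 4 throughout. Their mean log2 level was 8.53 to 8.90 in CHF ketotifen lungs and 7.56 to 8.54 in CHF placebo lungs, against 7.09 to 7.39 in sham ketotifen lungs and 5.99 to 7.38 in sham placebo lungs. Of the 9, 7 rose in CHF against sham with ketotifen, where 6.36% of all probe sets did, 8 in the average, where 11% did, and 0 were called with placebo, where 0.169% of all were. Plasma cell markers, 6 of them on the array, had a mean of 7.01 to 7.67 in CHF ketotifen lungs and 7.49 to 7.80 in CHF placebo lungs. Their mean was 6.59 to 7.15 in sham ketotifen lungs and 6.77 to 7.15 in sham placebo lungs. Of the 5 kept, Jchain was the 1 called higher in the average, where 11% of all probe sets were. The part of either list in the rise of Tnfsf13 was not tested.

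**Figure D4:**
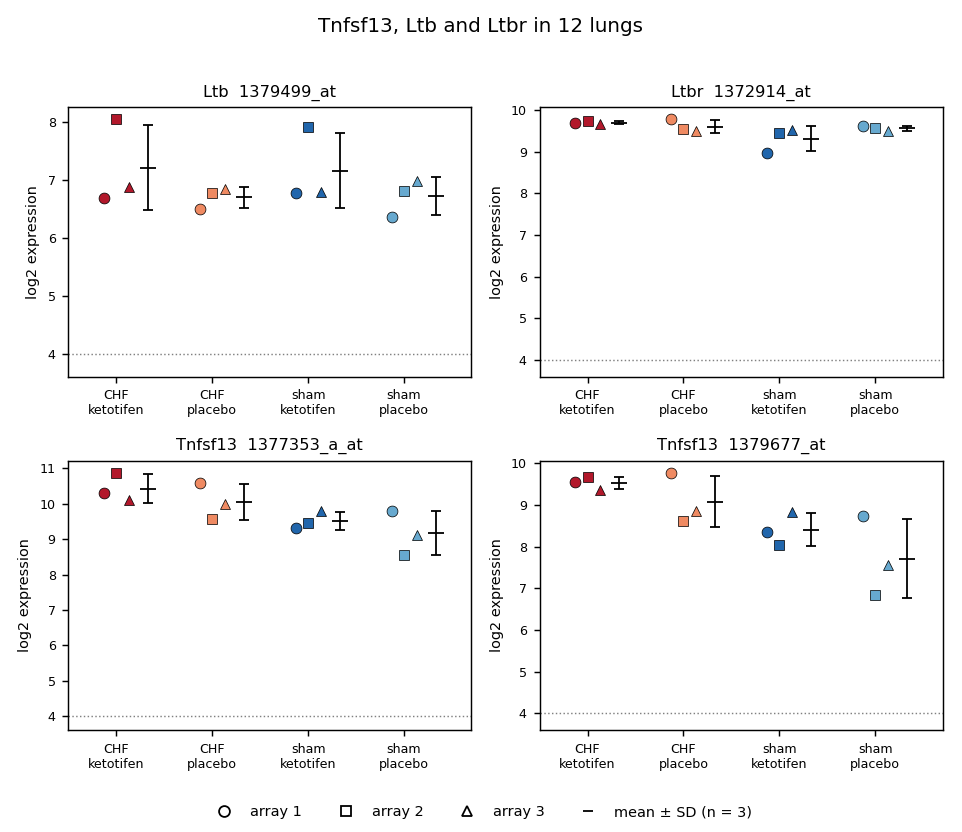
Log2 expression of Ltb, Ltbr and the probe sets of Tnfsf13 on each of the 12 arrays, with symbols for arrays 1 to 3, bars for the mean ± SD (n = 3) and a dotted line at a log2 value of 4. Both Tnfsf13 probe sets have lower means in the sham groups, and the placebo groups overlap. Ltbr is nearly level, and Ltb is high on array 2 of each ketotifen group.

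The genes around these members were read from lists of the same pathway. Of 7 kept lymphotoxin relatives, Tnfrsf1a, a receptor of tumour necrosis factor and of Lta, and Tnfrsf12a, the TWEAK receptor, were called higher in ketotifen against placebo within CHF, where 0.822% of all probe sets were. Tnfrsf1a was 0.92 ± 0.14 higher on the log2 scale, with an adjusted p of 0.00943 (limma), with 0.0632 without CHF placebo lung 2 and 0.0835 when only the arrays compared were fitted. Tnfrsf12a was 2.95 ± 0.57 higher, 7.73-fold, with an adjusted p of 0.0346 (limma), and was called in 3 of 12 fits that left out 1 array, with adjusted p of 0.0521 to 0.168 in the 9 others. Under ketotifen both were also called higher in CHF against sham, where 6.36% of all probe sets were. Tnf, the founding cytokine of the family, passed the filter on low values through the CHF ketotifen lungs alone, so its call there is not counted. It had values of 5.64, 9.25 and 4.13 in CHF ketotifen lungs and at most 2.75 elsewhere, all below the filter's level.

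Of 12 kept genes of NF-kappaB signalling, 2 were called higher in ketotifen against placebo within CHF, where 0.822% of all probe sets were. Birc3, a ubiquitin ligase that NF-kappaB induces, was 2.32 ± 0.28 higher with an adjusted p of 0.00267 (limma). Tnfaip3, an inhibitor of the same pathway, was 2.59 ± 0.27 higher with an adjusted p of 0.000951 (limma). Under ketotifen 4 of 12 were called higher in CHF against sham, where 6.36% of all probe sets were, with Nfkb1 at 0.49 and Nfkb2 at 0.51, each called in 3 of 12 fits that left out 1 array, with adjusted p of up to 0.135 and 0.141 in the 9 others.

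Cxcl10 and Cxcl9, ligands of Cxcr3, and the selectins Sele and Selp of endothelium also passed the filter only with the CHF ketotifen lungs, so their calls are not counted and no fold is given. Cxcl10 had log2 values of 6.20, 5.89 and 6.08 in CHF ketotifen lungs and 4.21, 2.51 and 3.40 in CHF placebo lungs, against at most 3.12 in sham lungs. Sele had 5.15, 6.61 and 4.89 in CHF ketotifen lungs and at most 3.06 on the other 9 arrays. Both passed the filter through the CHF ketotifen lungs, so their separation from the other groups is not read as a result. Of the 4 other kept chemokines of lymphocytes, Cxcl16, a ligand of Cxcr6, was the 1 called higher in CHF against sham with ketotifen. There 6.36% of all probe sets were called higher. Cxcl16 lost its call without any 1 of the 6 arrays compared, at adjusted p of 0.059 to 0.104 (limma). Of the 3 kept other B cell cytokine genes, Tgfb1, which can steer antibody class, was the 1 called there, against the same 6.36% of all probe sets. Its difference in CHF against sham with ketotifen was 0.97, with an adjusted p of 0.0348 (limma). Tgfb1 was called in 5 of 12 fits that left out 1 array. Leaving out those 5 genes, limma called 4 of 34 kept genes of all lists in ketotifen against placebo within CHF, where 1.22% of all probe sets were called. It called 10 of 34 in CHF against sham with ketotifen, against 13% of all, and 9 of 34 in the average, against 21%. With placebo it called 0 of all 39 in CHF against sham, against 0.169%, and 6 had an unadjusted p under 0.05, against 20.1%. Of the receptors for Tnfsf13 and Tnfsf13b, Tnfrsf17 stayed below 4 on all arrays, and Tnfrsf13b and Tnfrsf13c had no probe set under their symbols.

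**Figure D5:**
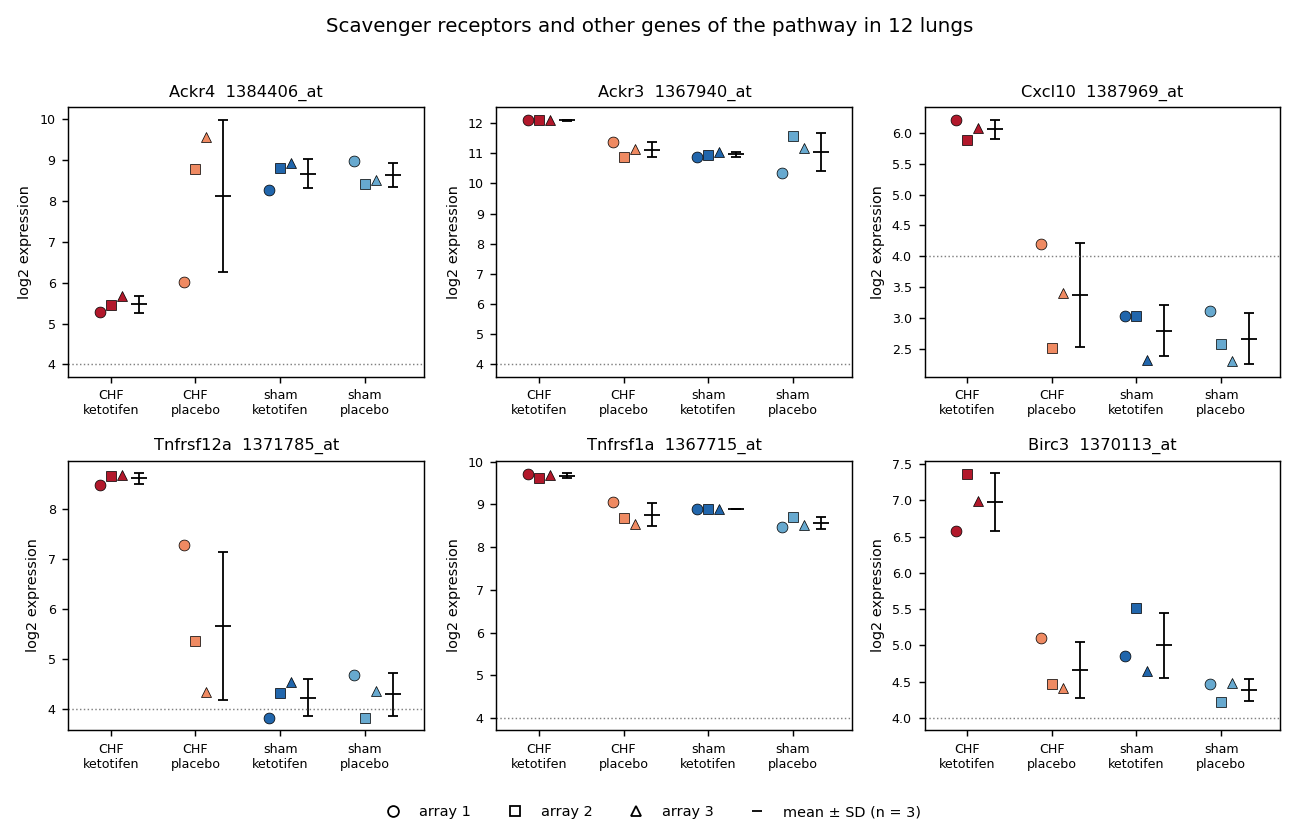
Log2 expression of 6 genes of the same pathways on each of the 12 arrays, with symbols for arrays 1 to 3, bars for the mean ± SD (n = 3) and a dotted line at a log2 value of 4. Ackr4 is low and Ackr3, Cxcl10, Tnfrsf12a, Tnfrsf1a and Birc3 are high in CHF ketotifen lungs. Cxcl10 passed the filter only with those lungs, so its height there is not read as a result.

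The genes whose log2 profile over the 12 arrays was most like each of 3 members were found among 9739 genes as a description, since all values share the same arrays and groups. For Ccl21 they were Egflam, Spc24, Rhoc, Col15a1 and Fst, with Pearson correlations of 0.936 to 0.969. For Cxcl13 they were Lix1l, Endou, Cebpz, Fhl2 and Sfrp2, at 0.887 to 0.895. For Tnfsf13 they were Txn1, Acp5, Krt79, Naaa and Pygl, at 0.977 to 0.992.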

How the data were processed

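RNA of 12 whole-lung samples was hybridised to Affymetrix rat arrays, per the labels. The deposited values are log2 values per probe set. The submitters' processing notes name GCRMA, and R version 2.5.0, as what the authors used, and give no settings. GCRMA corrects for probe sequence and normalises between arrays, which sets a floor for dim probe sets.

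The table held 31099 probe sets, 57 of them controls. Of the others 20826 carried 1 gene symbol, 436 several and 9780 none. Groups came from the labels. Values were fitted with limma 3.58.1 in R 4.3.3, with 4 group means over all 12 arrays, 8 residual degrees of freedom, eBayes with a trend and Benjamini-Hochberg adjustment over the 16536 probe sets kept, two-sided, for 6 comparisons. A gene was read by its brightest kept probe set. The named genes are all members, and up to 4 examples of smallest p from each pathway list. Members and lists were chosen with earlier results of these data known. On simulated data of the same size, the fit recovered 48% of changes of 1 and 88% of changes of 2 on the log2 scale. Alternatives were other filters, scalings, models and left-out arrays.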

Additional observations from a re-analysis of the deposited data

How the results depend on the processing

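Ccl21 in CHF against sham with ketotifen stayed called in 22 of 23 alternatives, with a log2 difference of 1.82 to 2.23 when single arrays were left out, and was not called without sham placebo lung 3 and sham ketotifen lungs 1 and 2, where it was 2.16 with an adjusted p of 0.215 (limma); that fit leaves 1 sham ketotifen lung, assumed to vary like the other groups, and has fewer samples. The number of genes called in the average of CHF against sham was 2, and 1 with no filter. It was 0 without sham placebo lungs 2 and 3, 0 without these and sham ketotifen lung 2, and 0 without sham placebo lung 3 and sham ketotifen lungs 1 and 2. Leaving out single arrays gave 1 to 3. In CHF against sham with ketotifen the number was 2 when only the arrays compared were fitted, and 0 without sham placebo lung 3 and sham ketotifen lungs 1 and 2. Single arrays left out gave 0 to 1 for CHF against sham with placebo, where Tnfsf13 was called without sham placebo lung 1, 0 to 1 for ketotifen against placebo in CHF, and 0 to 1 for the interaction, where Ccl21 was called without CHF placebo lung 1.

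Signs turned for differences that were not called. Leaving out single arrays, Ccl21 in CHF against sham with placebo ranged from -0.19 to 0.73, Cxcl13 with ketotifen from -0.48 to 1.40 and Ccl19 with ketotifen from -0.51 to 0.16. With CHF ketotifen lungs 1 and 3 averaged, Cxcl13 with ketotifen was -0.14. Without sham placebo lungs 2 and 3, which were the highest of their group for both genes and whose removal leaves 1 sham placebo lung, the placebo differences of Ccl19 and Cxcl13 were 0.14 and 0.59, and the average of Cxcl13 was 0.41. Without those and sham ketotifen lung 2, the placebo differences were again 0.14 and 0.59, Ccl19 with ketotifen was 0.16, and the averages of 1388583_at, Ccl19 and Cxcl13 were 0.019, 0.15 and 0.9996. Without sham placebo lung 3 and sham ketotifen lungs 1 and 2, Ccl19 with ketotifen was 0.29 and the average of Cxcl13 was 0.24. Fewer arrays entered these fits; the cause was not otherwise tested.

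Residuals of the 18 same-numbered pairs correlated at -0.35 to 0.26, with a median of 0.05. Those of the 36 others correlated at -0.39 to 0.32, with a median of -0.03. With 3 arrays a group, such overlapping ranges cannot tell whether same-numbered samples were paired. Fitting only the arrays compared ended the calls of ketotifen against placebo within CHF for Tnfrsf1a and Tnfrsf12a, at adjusted p of 0.0835 and 0.154 (limma). It also ended those of CHF against sham with ketotifen for Nfkb1 and Nfkb2, at 0.0729 and 0.0771 (limma). Genes that passed the filter only with the CHF ketotifen lungs are left out here, since their calls are not counted. With the replicate number as a block the member counts were 0, 0, 1, 0, 0 and 2, as without it, and 1387655_at lost its average call at an adjusted p of 0.0508. With 3 arrays a group, changes near 1 on the log2 scale were often missed in simulated data.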

Other observations

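Ccl20, the chemokine that draws immature dendritic cells and B cells through Ccr6, was picked out after its values were seen. It had log2 values of 4.38 to 5.27 on array 2 of the sham ketotifen group and arrays 2 and 3 of the sham placebo group, and of 1.92 to 2.71 on the other 9 arrays. Ccl20 passed the filter on low values only through those 3 arrays, so its separation there is not read as a result. Cxcl13 was at 5.69 to 6.55 on the same 3 arrays, against 2.79 to 5.18 on the others.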
